A study of Mus musculus with 9 samples.

Results

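The autophagy core genes are 36 mouse genes that encode the machinery of autophagosome formation, from the ULK1 initiation complex to the conjugation machinery, the cargo receptors and the transcription factor TFEB. They were chosen by name, with earlier results of these data known. All 36 were found among the 27179 gene identifiers of the count table and among the 13129 genes with enough counts to test. RNA immunoprecipitation sequencing (RIP-seq), in which RNA that comes down with a protein is sequenced, was performed on splenic B cells of wild-type mice. The cells were purified by depletion of CD43+ cells and activated for 72 h, per the labels with 5 ug/mL CD40 ligand (the study's methods name an anti-CD40 antibody), 10 ug/mL anti-IgM antibody and 20 ng/mL IL-4. The 9 libraries comprised 3 of the cell lysate (Input), 3 of RNA precipitated with normal rabbit IgG (IgG) and 3 of RNA precipitated with anti-phospho-UPF1 antibody (p-UPF1). Genotype, cells and stimulation were shared by all 3 groups, so every comparison is between preparations of the same kind of lysate and none is between treatments. Activated splenic B cells were used in place of pre-B cells because of the amount of material needed.

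Autophagy encloses cytoplasm in a double membrane and delivers it to the lysosome. The ULK1 kinase complex starts the process, the class III PI3-kinase complex makes the lipid PI3P on the growing membrane, ATG9 and ATG2 proteins supply lipid, and a ubiquitin-like conjugation system lets the membrane grow and take up cargo receptors with their cargo. UPF1 is the central RNA helicase of nonsense-mediated decay (NMD). Once phosphorylated, it recruits decay factors to an mRNA on which translation has terminated. A long 3′ UTR and an exon junction downstream of the termination codon are known features of RNAs that this pathway can act on. In activated B cells autophagy is known for its part in metabolic fitness and in the survival of memory and antibody-secreting cells.

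Total counts were between 19873687 and 24945286 in the Input libraries, between 17372510 and 18550508 in the IgG libraries and between 23251890 and 24802119 in the p-UPF1 libraries. Replicates of a group correlated with Pearson's r between 0.982 and 0.997 on the log2 scale of CPM (TMM-normalised counts scaled to 1e6 per library), lowest among the IgG libraries. The 6 B cell marker genes summed to between 3091 and 3109 CPM in Input, between 2395 and 2470 in IgG and between 2137 and 2215 in p-UPF1. Of 19 marker genes of T cells, macrophages, NK cells, neutrophils and erythroid cells, all but the macrophage marker Adgre1 had at most 18 counts in any library, and 4 were at 0 in all of them. Adgre1 was between 127 and 138 CPM in Input, between 85.6 and 91.3 in IgG and between 56.5 and 58.6 in p-UPF1, and its part in the results was not tested.

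The sequences around the termination codon are shown for Atg14, which was enriched with p-UPF1, and for 2 pairs of paralogs, Wipi1 and Wipi2 and Atg16l1 and Atg16l2, whose members differed in enrichment and in 3′ UTR length. Each line gives 21 coding bases, the termination codon in capitals, at which UPF1 is thought to join the terminating ribosome, and the first 6 bases of the 3′ UTR, 5′ to 3′ in the sense of the mRNA, from RefSeq on GRCm38.p6.
Atg14, chr14:47542831-47542860, minus strand: aaagcttacactggacaccgcTAAcgagtt
Wipi1, chr11:109573914-109573943, minus strand: aagggcaaaacgaagcagtccTGAcaagaa
Wipi2, chr5:142666949-142666978, plus strand: cccatgattctccggactgacTGAtcctga
Atg16l1, chr1:87791286-87791315, plus strand: gctgtgctgtgggcacagcctTGAtgctgc
Atg16l2, chr7:101289841-101289870, minus strand: aggaaggtggtgctctggcacTGAgtggca
Atg14 ended with TAA and the other 4 with TGA. The annotated 3′ UTR that follows was 1944 bases long in Atg14, 2400 in Wipi2 against 399 in Wipi1, and 1119 in Atg16l1 against 231 in Atg16l2, each in the transcript chosen for the gene. The longest annotated coding transcript of Atg16l2 has a 3′ UTR of 3706 bases, which turns the order of that pair.

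With TMM scaling, most autophagy core mRNAs were more abundant in p-UPF1 than in IgG precipitates. A smaller number, among them the mRNAs of the cargo receptor p62 and of the lipid kinase VPS34, were depleted. With TMM-normalised counts and edgeR's quasi-likelihood test (adjusted p under 0.05), 22 of the 36 were higher in p-UPF1 than in IgG, 9 were lower and 5 were not called. Among all genes tested 40.4% were higher and 42.2% lower (82.6% called), so that a call by itself was common, and the members' 61.1% higher and 25% lower stand against those shares. The median log2 fold change (log2FC) over IgG was 0.46 for the members and -0.03 for all genes tested. Over Input, 22 members were higher and 12 lower (40.8% and 42.6% of all genes tested, 83.4% called), with a median log2FC of 0.55 against -0.03. Both comparisons share the p-UPF1 libraries and are not independent of each other. Scaling by library size alone or by the upper quartile gave 18 of the 36 members higher and 10 lower over IgG. CPM values are relative to the other RNAs of a library, and in bulk samples fewer cells of a type and less RNA per cell cannot be told apart. The labels do not state that the libraries of a group came from separate cultures, and the study's methods call the data points of its graphs biological replicates without naming the RIP-seq libraries. The p-values measure the spread between these samples, which may then be technical.

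The 36 mRNAs together took up between 0.233% and 0.235% of all counts in Input, between 0.237% and 0.238% in IgG and between 0.379% and 0.381% in p-UPF1. In 20 of the 36, all 3 p-UPF1 libraries lay above all 6 IgG and Input libraries (37.0% of all genes tested), and in 9 all 3 lay below (37.6%). The standard deviation of log2FC over IgG among the members was 1.17 (1.34 among all genes tested), while the median standard error of a single member's value was 0.06 (0.08 among all genes tested), so the members differed from each other by far more than the replicates did. The plot of CPM by library shows this gene by gene.

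**Figure D1:**
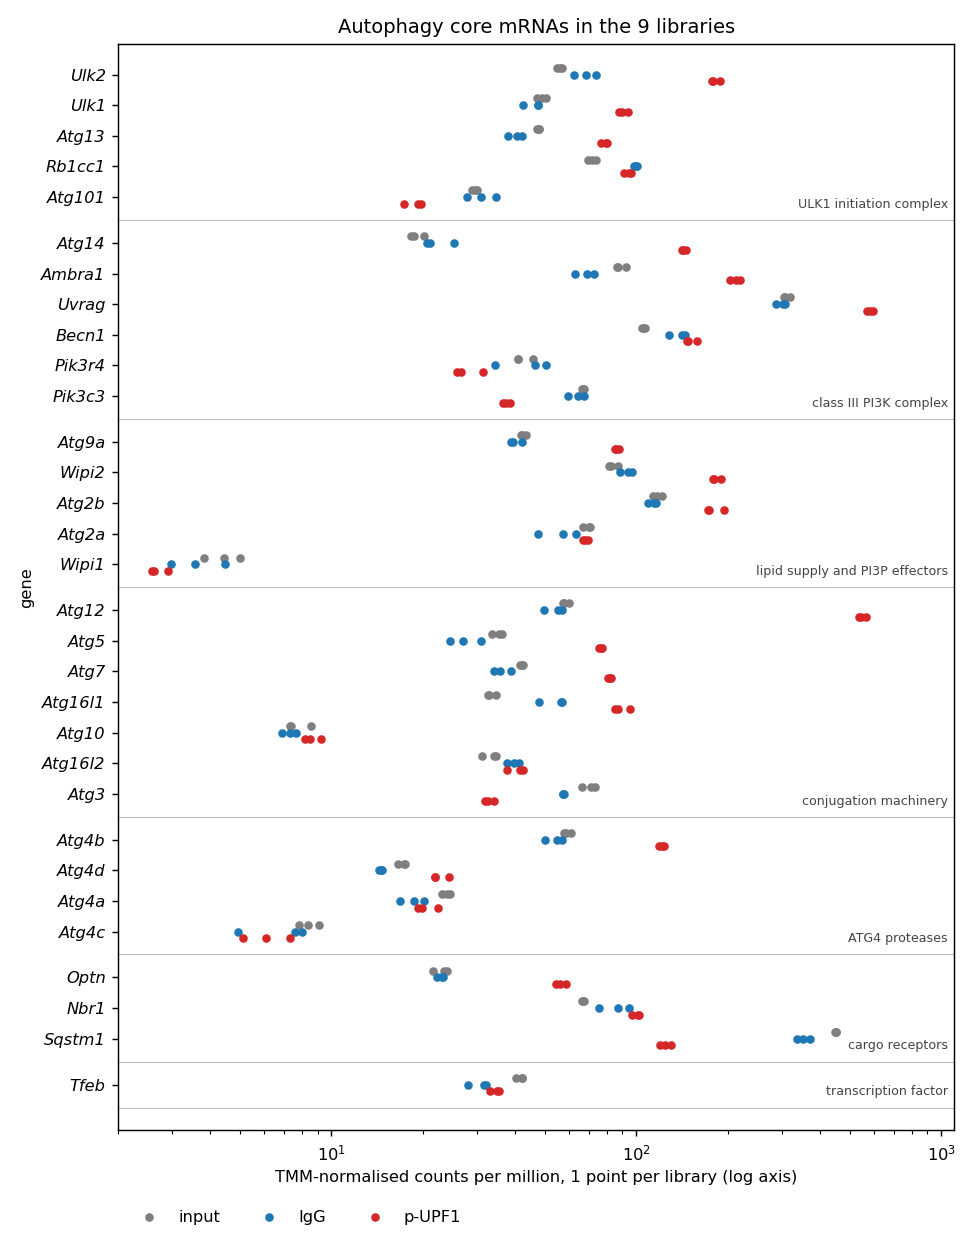
TMM-normalised CPM (log axis) of 31 of the autophagy core mRNAs, grouped by role, with 1 point for each of the 3 Input (grey), 3 IgG (blue) and 3 p-UPF1 (red) libraries. Within each role genes are ordered by their p-UPF1 over IgG fold change, and the red points of Atg12 sit between 535 and 564, far right of its grey and blue points.

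RNAs were called p-UPF1-bound, by the study's criteria, where log2FC reached 1 or more against IgG and 2 or more against Input, with adjusted p under 0.05 in both. Of the 36 members 3 met them, among them Atg12 and Atg14, which is 8.33% beside 6.25% (820) of all genes tested. Only 2 met them with upper-quartile scaling or with a test against the fold thresholds themselves. Over IgG alone, 11 members were higher with a log2FC of at least 1 (22.2% of all genes tested), and over Input alone 3 were higher with at least 2 (6.31%). In the other direction, 3 members had a log2FC of -1 or less over IgG (21.9% of all genes tested), and 2 had one of -2 or less over Input (9.67%).

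Atg12, which encodes the ubiquitin-like protein that is joined to ATG5, had the highest log2FC of the 36 over IgG and over Input. It was at 57.9, 60.0 and 57.6 CPM in Input, 49.8, 55.2 and 56.8 in IgG, and 546, 564 and 535 in p-UPF1. Its 3 p-UPF1 libraries lay far above the other 6, and its log2FC was 3.34 ± 0.05 (SE) over IgG (10.2-fold, edgeR adjusted p = 5.54e-18) and 3.23 ± 0.05 over Input. That placed Atg12 at percentile 99.5 of all genes tested for its log2FC over IgG.

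Atg14, the subunit that directs the PI3-kinase complex to sites of autophagosome formation, rose next most. It was at 18.7, 18.3 and 20.1 CPM in Input, 21.1, 20.6 and 25.2 in IgG, and 143, 145 and 141 in p-UPF1. The groups p-UPF1 and IgG did not overlap, with a log2FC of 2.68 ± 0.07 over IgG (6.41-fold, edgeR adjusted p = 9.26e-16) and 2.91 ± 0.07 over Input.

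**Figure D2:**
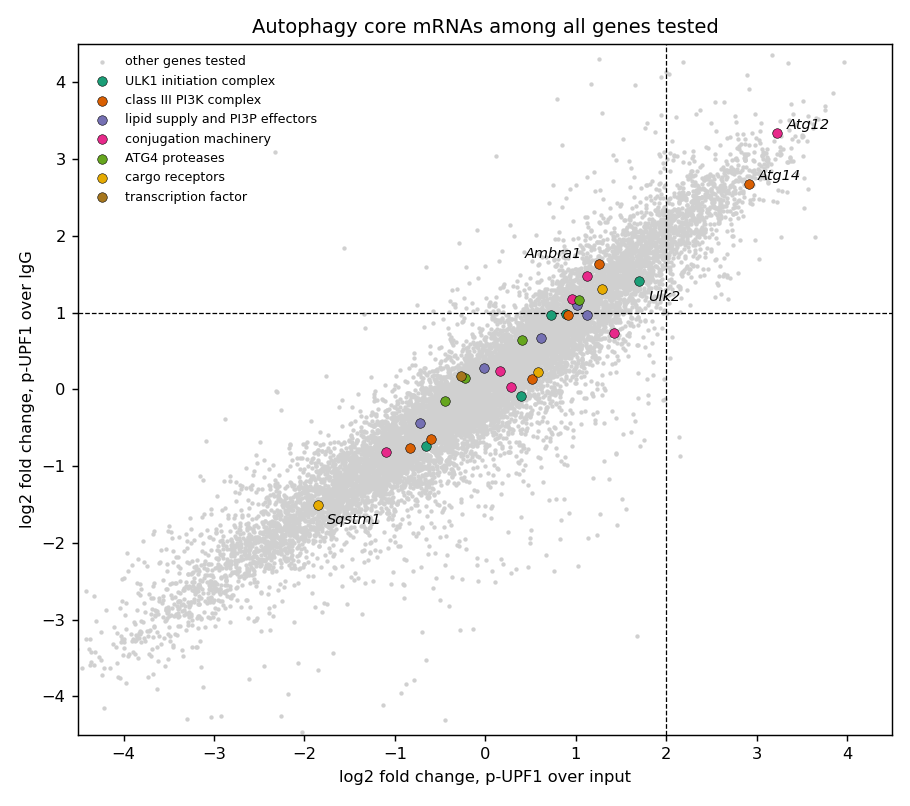
Log2 fold change of p-UPF1 over Input (x axis) against p-UPF1 over IgG (y axis) for all genes tested (grey) and 31 of the autophagy core mRNAs (coloured by role), with dashed lines at the thresholds of 2 and 1; genes beyond the axes are not drawn. Both axes contain the p-UPF1 libraries. Atg12 and Atg14 lie in the upper right field, and Sqstm1 lies at the lower left.

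Within the ULK1 initiation complex, 3 of 5 mRNAs were higher over IgG (40.4% of all genes tested), 1 was lower (42.2%) and 1 was not called. Ulk2, which encodes a kinase of the complex, was at 54.8, 56.0 and 57.1 CPM in Input, 62.6, 73.7 and 68.5 in IgG, and 177, 179 and 188 in p-UPF1 (log2FC over IgG 1.41 ± 0.05). Ulk1, its paralog and the kinase after which the complex is named, had a log2FC over IgG of 0.98 ± 0.06, and Atg13, the regulatory subunit that binds the kinase, one of 0.97 ± 0.05. For these 3 genes no p-UPF1 library overlapped with an IgG library. Atg101, a stabilising partner of ATG13, went the other way, with 28.96, 29.97 and 29.6 CPM in Input, 31.0, 34.8 and 27.9 in IgG, and 19.6, 19.2 and 17.3 in p-UPF1 (log2FC over IgG -0.74 ± 0.08, edgeR adjusted p = 3.47e-07). Rb1cc1, the large scaffold also known as FIP200, was not called over IgG (log2FC -0.09 ± 0.04, edgeR adjusted p = 0.0725) and was higher over Input (0.39 ± 0.04). Over IgG it was called lower when libraries were scaled by size alone (-0.25, edgeR adjusted p = 6.4e-05), by the upper quartile (-0.22) or by TMM with an Input library as the reference (-0.17). A near-identical copy elsewhere in the genome covers 82.5% of the Rb1cc1 transcript at 94.4% identity, so its counts are uncertain.

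In the class III PI3-kinase complex and its regulators, 4 of 6 mRNAs were higher over IgG (40.4% of all genes tested). The other 2, Pik3c3 and Pik3r4, were lower (42.2%). Pik3c3, the catalytic subunit VPS34, was at 66.5, 67.1 and 66.6 CPM in Input, 59.5, 64.2 and 67.3 in IgG, and 36.5, 37.3 and 38.5 in p-UPF1, a log2FC over IgG of -0.77 ± 0.05 (edgeR adjusted p = 1.02e-09). Pik3r4, its pseudokinase partner VPS15, had a log2FC over IgG of -0.65 ± 0.11. Ambra1, a regulator that binds Beclin 1, was at 86.1, 92.5 and 86.9 CPM in Input, 62.9, 68.8 and 72.4 in IgG, and 203, 218 and 213 in p-UPF1 (log2FC over IgG 1.63 ± 0.05). Uvrag, which takes the place of ATG14 in an endosomal form of the complex, was next to Sqstm1 the highest of the 36 per length of exon in Input, at 306, 307 and 319 CPM in Input, 288, 308 and 301 in IgG, and 572, 597 and 582 in p-UPF1 (log2FC over IgG 0.97 ± 0.04). The subunits that tell the 2 forms of the complex apart, ATG14 and UVRAG, were thus both encoded by mRNAs that were higher in p-UPF1. Becn1, the scaffold subunit Beclin 1, was slightly higher over IgG (0.13 ± 0.05, edgeR adjusted p = 0.0236) and more so over Input (0.51 ± 0.05), and 6 of the alternative settings took away its call over IgG. Its value over IgG was -0.03 when libraries were scaled by size alone, 0.08 without IgG library C and 0.11 without p-UPF1 library A. On the opposite strand, exons of Cntd1 cover 18.4% of the exon bases of Becn1, so its counts are uncertain if strand was not used.

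Of the lipid supply proteins and PI3P effectors, 4 of 5 mRNAs were higher over IgG (40.4% of all genes tested) and 1 was lower (42.2%). Atg9a, a lipid scramblase carried by vesicles that seed the membrane, had 42.2, 41.9 and 43.3 CPM in Input, 42.1, 38.8 and 39.4 in IgG, and 86.0, 87.4 and 84.8 in p-UPF1 (log2FC over IgG 1.10 ± 0.05). Wipi2, a PI3P-binding protein that recruits ATG16L1, had a log2FC over IgG of 0.97 ± 0.05, and the lipid transfer protein gene Atg2b one of 0.66 ± 0.05. Atg2a, its paralog, had a log2FC of 0.28 ± 0.08 over IgG, a call lost with scaling by library size alone (0.12) or by the upper quartile (0.14), and of -0.02 ± 0.07 over Input, where it was not called (edgeR adjusted p = 0.799). Wipi1 had few reads, between 2.57 and 5.03 CPM in every library, and its lower value over IgG (log2FC -0.44 ± 0.19, edgeR adjusted p = 0.0447) passed the threshold narrowly and lost it in 13 of the alternative settings, among them the omission of any single library except IgG library C.

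The conjugation machinery joins ubiquitin-like proteins to their targets on the growing membrane. Of its 7 mRNAs 4 were higher over IgG (40.4% of all genes tested), 1 was lower (42.2%) and 2 were not called. Besides Atg12, described above, Atg5 and Atg7 rose. Atg5, the partner to which ATG12 is joined, was at 35.4, 36.2 and 33.6 CPM in Input, 24.4, 30.9 and 27.0 in IgG, and 76.7, 75.6 and 77.3 in p-UPF1 (log2FC over IgG 1.48 ± 0.07). Atg7, the E1-like enzyme that activates ATG12, had a log2FC over IgG of 1.17 ± 0.05. Atg16l1, which brings the ATG12-ATG5 conjugate to the membrane, was already higher in IgG than in Input, with 34.5, 32.5 and 32.8 CPM in Input, 57.0, 47.9 and 56.6 in IgG, and 95.4, 87.1 and 85.2 in p-UPF1. Its log2FC was therefore larger over Input (1.42 ± 0.07) than over IgG (0.73 ± 0.07). Atg3, an E2-like enzyme that acts downstream of ATG7, was lower, with 71.0, 73.0 and 66.5 CPM in Input, 57.9, 57.5 and 57.5 in IgG, and 32.5, 31.8 and 34.0 in p-UPF1 (log2FC over IgG -0.81 ± 0.05, edgeR adjusted p = 4.03e-10). The E1-like enzyme ATG7 and the E2-like enzyme ATG3, which act in sequence, were thus encoded by mRNAs that differed in direction. Atg10, the E2-like enzyme for ATG12, was called in neither comparison (log2FC over IgG 0.24 ± 0.11, edgeR adjusted p = 0.0613), although 3 of the alternative settings called it higher over IgG and 1 called it higher over Input. Atg16l2 was not called over IgG (0.04 ± 0.07, edgeR adjusted p = 0.624) and was higher over Input (0.28 ± 0.07).

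ATG4 proteins are cysteine proteases of the conjugation machinery. Atg4b, the highest of the 4 per length of exon (17.0 CPM per kb in Input), was at 57.7, 60.9 and 58.7 CPM in Input, 56.9, 50.2 and 54.7 in IgG, and 119, 121 and 123 in p-UPF1 (log2FC over IgG 1.17 ± 0.05). Atg4d was also higher (0.64 ± 0.08), although exons of Kri1 on the opposite strand cover 24.4% of its exon bases. Atg4a (0.14 ± 0.09) and Atg4c (-0.15 ± 0.17) were not called over IgG (edgeR adjusted p = 0.1254 and 0.432), but without IgG library C Atg4a was called higher (0.21) and Atg4c lower (-0.34). Both were lower over Input (-0.22 ± 0.08 and -0.45 ± 0.17), a call that Atg4a lost in 7 and Atg4c in 5 of the alternative settings, DESeq2 among them. A near-identical copy covers 99.5% of the Atg4a transcript at 99.3% identity, so its counts are uncertain.

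Cargo receptors link ubiquitylated cargo to the growing membrane. Sqstm1, the gene of p62, had the highest level per length of the 36 in Input, 221 ± 0.94 CPM per kb of exon (SD, n = 3), and was among the most depleted. It was at 451, 450 and 447 CPM in Input, 337, 353 and 370 in IgG, and 119, 125 and 129 in p-UPF1, a log2FC of -1.50 ± 0.04 over IgG (edgeR adjusted p = 9.11e-15) and -1.85 ± 0.04 over Input. Optn, optineurin, a receptor in the removal of mitochondria and bacteria, showed the reverse, with 23.8, 21.5 and 23.4 CPM in Input, 23.3, 22.96 and 22.3 in IgG, and 56.0, 58.6 and 54.4 in p-UPF1 (log2FC over IgG 1.30 ± 0.06). Nbr1, a receptor related in domain structure to p62, had a small log2FC over IgG of 0.22 ± 0.06, a call lost with scaling by library size alone (0.06) or by the upper quartile (0.09). Tfeb, the transcription factor of lysosome and autophagy genes, was slightly higher over IgG (0.17 ± 0.06, edgeR adjusted p = 0.0197) and lower over Input (-0.27 ± 0.06), and 7 of the alternative settings took away its call over IgG.

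The order of levels per length therefore differed between Input and p-UPF1. In Input, the highest after Sqstm1 were Uvrag with 89.7 ± 2.13 CPM per kb of exon and Becn1 with 43.8 ± 0.51, and Atg3 had 34.9 ± 1.65 (SD, n = 3). These 4 differed from each other by more than their SDs. In p-UPF1, Atg12 was highest with 208 ± 5.54 CPM per kb, followed by Uvrag with 169 ± 3.64, while Becn1 with 62.5 ± 2.73 and Sqstm1 with 61.3 ± 2.49 did not differ beyond their SDs. These lengths cover all annotated exons of a gene, and per kb of the chosen transcript alone Becn1 was at 73.3 ± 3.20 CPM in p-UPF1, above Sqstm1 at 61.3 ± 2.49. The lowest member likewise depended on the length used. Per kb of all exons it was Atg4c, with 0.67 ± 0.05 in Input and 0.49 ± 0.09 in p-UPF1, and per kb of the chosen transcript it was Wipi1, with 2.44 ± 0.33 and 1.48 ± 0.10, beside 2.65 ± 0.20 and 1.94 ± 0.34 for Atg4c.

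The IgG precipitate served as the background of RNA that adheres without the specific antibody, and members differed there too. Over Input, 8 were higher and 15 lower in IgG (18.2% and 34.7% of all genes tested, 52.9% called), and scaling by library size alone gave 9 and 10. None of the 36 reached a log2FC of 2 or of -2 with adjusted p under 0.05, as 0.472% and 0.259% of all genes tested did. The highest were Atg16l1 (log2FC 0.69 ± 0.07), Rb1cc1 (0.48 ± 0.04), Becn1 (0.38 ± 0.05) and Nbr1 (0.36 ± 0.07). Tfeb (-0.44 ± 0.06) and Ambra1 (-0.38 ± 0.05) were among the lower ones. Atg12 was not called there (-0.12 ± 0.05, edgeR adjusted p = 0.0754), and Atg14 was slightly higher (0.23 ± 0.08), a call lost without Input library A (0.20), Input library B (0.19) or IgG library C (0.12), against log2FC values above 2 in p-UPF1 over either of the other groups.

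Closely related genes were compared within each library, since the scaling of a library cancels in a ratio of 2 of its mRNAs, apart from the constant added to both. For each pair, the log2 ratio of CPM (with 0.5 added to both) was calculated per library, and 4 of the 6 pairs compared are given here. The ratio of Wipi1 to Wipi2 was -3.91, -4.15 and -4.24 in Input, -4.29, -4.53 and -4.68 in IgG, and -5.87, -5.85 and -5.80 in p-UPF1, on the log2 scale. The p-UPF1 libraries lay below all others and differed from IgG by -1.34 on average, a 2.53-fold change of the ratio in favour of Wipi2. The ratio of Atg16l1 to Atg16l2 was 0.02, 0.06 and -0.08 in Input, 0.60, 0.27 and 0.45 in IgG, and 1.16, 1.20 and 1.03 in p-UPF1. It differed from IgG by 0.69 on average, or 1.62-fold, and IgG already lay above Input. The Ulk1 to Ulk2 ratio changed by -0.43 and the Atg2a to Atg2b ratio by -0.37. In all 4 of these pairs the 3 p-UPF1 libraries did not overlap the 3 IgG libraries, and the two-sided exact permutation p was 0.1 for each pair, before and after adjustment over the 6 pairs. That is the smallest p that 3 against 3 libraries can give, so this permutation test cannot pass 0.05.

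**Figure D3:**
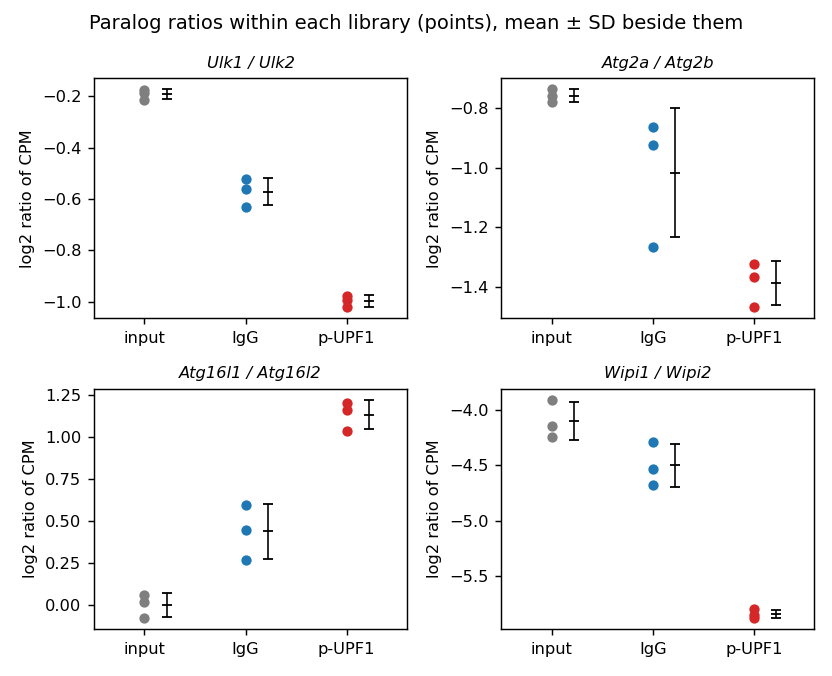
Log2 ratio of CPM between paralogs in each library (points; grey Input, blue IgG, red p-UPF1), with mean ± SD of the 3 libraries beside them and a separate y axis for each pair. In every pair the red points lie apart from the blue ones, by -1.34 for Wipi1 over Wipi2 and by -0.37 for Atg2a over Atg2b.

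The members were then set beside the transcript features annotated in RefSeq, which the choice of the 36 did not use. Across the 36 genes, the log2FC over IgG increased with the logarithm of the 3′ UTR length (Pearson's r = 0.66, Spearman's rho = 0.69, n = 36 genes). The genes share the same 9 libraries and scaling and are not independent replicates, so this is a description. Over all 11905 coding genes tested the same correlation was weaker (r = 0.36). In contrast, the coding length (r = 0.02) and 5′ UTR length (r = -0.15), also as logarithms, and the GC content (r = -0.07) of the members showed little relation to the log2FC over IgG. With the longest annotated coding transcript of each gene in place of the chosen one, r for the 3′ UTR was 0.61.

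By length class, the 7 members with a 3′ UTR from 250 to below 500 bases had a median log2FC over IgG of -0.65, beside -0.55 for the 1697 coding genes of that class. Atg101, Pik3c3, Pik3r4, Atg2a and Wipi1 were among them, of which Atg2a alone was not lower over IgG. The 16 members from 1000 to below 2000 bases had a median of 1.04, beside 0.45 for 2980 coding genes, and the 4 from 2000 to below 4000 bases (Ulk2, Atg2b, Wipi2 and Atg12) had 1.19, beside 0.49 for 2295. The medians of the members with a long 3′ UTR thus lay above those of their class, while Rb1cc1, with 1829 bases and a log2FC of -0.09, Nbr1, with 1193 bases and 0.22, and Atg4c, with 1223 bases and -0.15, lay below. The 8 members from 500 to below 1000 bases had a median of 0.14, and Atg16l2, alone below 250 bases, had 0.04 beside -0.93 for 1760 coding genes. Sqstm1 (638 bases), at -1.50, lay below its class, whose 2435 coding genes had a median of 0.07. Among the paralogs, the one with the longer 3′ UTR had the higher log2FC in 4 of these 4 pairs: Wipi2 (2400 bases) over Wipi1 (399 bases), Atg16l1 (1119) over Atg16l2 (231), Ulk2 (2183) over Ulk1 (1683), and Atg2b (3534) over Atg2a (467). With the longest coding transcripts this held in 3 of 4, the exception being Atg16l2, for which a 3′ UTR of 3706 bases is annotated.

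**Figure D4:**
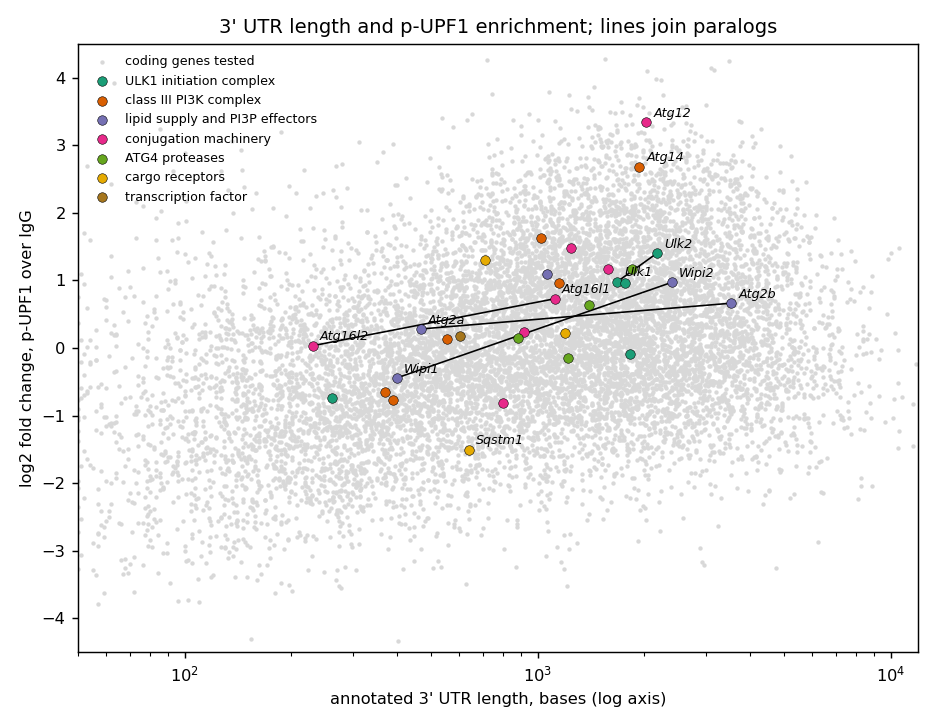
Annotated 3′ UTR length in bases (log axis) against log2 fold change of p-UPF1 over IgG for coding genes tested with a 3′ UTR of at least 50 bases (grey) and 31 of the autophagy core mRNAs (coloured by role), with black lines between paralogs. Every line rises from left to right, most for Wipi1 to Wipi2 and least for Atg2a to Atg2b.

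Other features that are known from NMD substrates were counted as well. No member had an exon junction more than 50 bases downstream of its termination codon in any annotated coding transcript (0 of 36, beside 0.764% of coding genes). An upstream ATG in the 5′ UTR was annotated for 20 of 36 (55.6%, beside 46.6%), with a median log2FC over IgG of 0.65 with and 0.26 without, beside 0.17 and -0.16 for coding genes. At least 1 transcript that GENCODE classes as an NMD substrate was annotated for 11 of 36 (30.6%, beside 29.4%), and these had a median log2FC over IgG of 0.24, against 0.66 for the other 25, while coding genes had 0.17 with and -0.06 without. Neither Atg12 nor Atg14 had an upstream ATG or such a transcript. The termination codon was TGA in 24 of 36 (66.7%), beside 51.7% of coding genes.

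Further genes of the pathway, 57 in 5 lists of which 56 had enough counts to test, were divided into 27 higher (48.2%, beside 40.4% of all genes tested), 24 lower (42.9%, beside 42.2%) and 5 not called over IgG, with a median log2FC of 0.06 (-0.03 for all genes tested). Of these 7 were p-UPF1-bound (12.5%, beside 6.25%). Autophagosome formation factors were mostly higher (7 of 9, 2 lower, median 1.16), with the bound genes Rubcn, an inhibitor of the PI3-kinase complex (log2FC 2.21 ± 0.04 over IgG), and Tecpr1 (1.79 ± 0.05), and with Vmp1, a lipid scramblase of the endoplasmic reticulum, lowest (-1.07 ± 0.05). Selective autophagy receptors were mostly lower (7 of 10, 2 higher, median -0.68), from Calcoco1 at -1.40 to the bound gene Tollip at 2.28. The TFEB family and lysosome genes were also mostly lower (7 of 12, 3 higher, median -0.53), from Ctsl, the protease cathepsin L, at -1.74 to Tfe3, a relative of TFEB, at 1.66.

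Genes of autophagosome-lysosome fusion were split (6 of 11 higher, 5 lower, median 0.85), beside 40.4% higher and 42.2% lower of all genes tested. They ranged from the SNARE gene Vamp8 at -1.50 to the bound gene Vps33a, a subunit of tethering complexes, at 2.37. Of the genes of mTORC1 and AMPK, the kinase complexes that restrain and promote autophagy, 9 of 14 were higher and 3 lower (median 0.58). The bound genes there were Mlst8 (3.24) and Rptor (2.11), subunits of mTORC1, and Prkab1 (2.81), a subunit of AMPK, and the lowest was Rraga (-2.24), a GTPase that brings mTORC1 to the lysosome. The lists are described by their counts and medians and were not tested against each other.

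**Figure D5:**
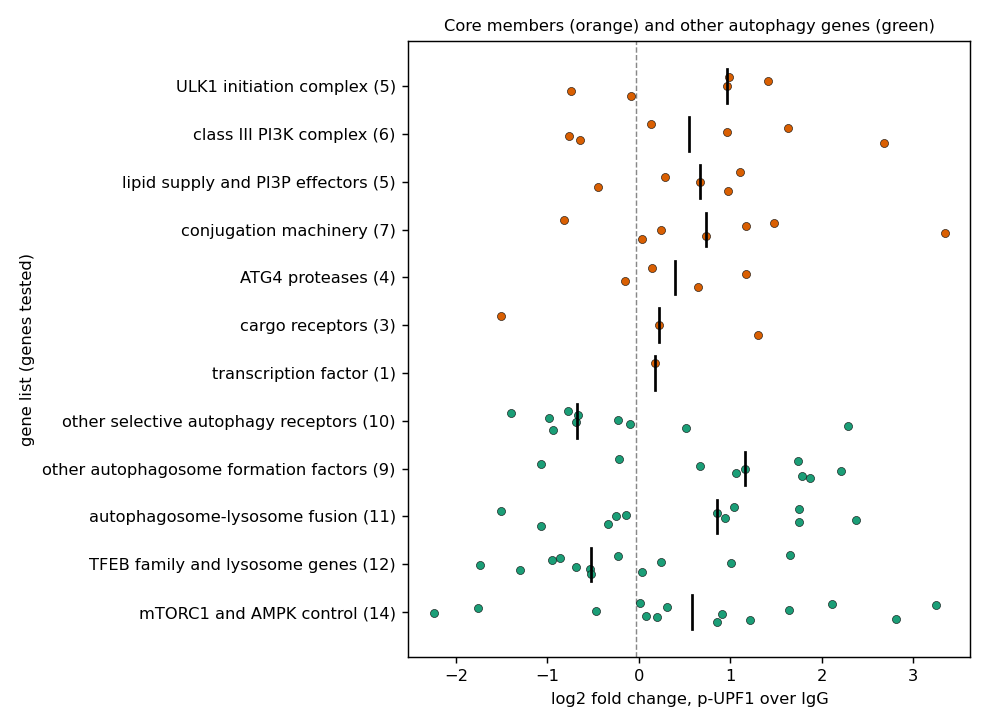
Log2 fold change of p-UPF1 over IgG of 31 of the autophagy core genes by role (orange) and of other autophagy genes by list (green), 1 point for each gene, with black bars at the median of each list, the number of genes tested in brackets and a dashed line at the median of all genes tested (-0.03). Most orange points fall to the right of the line, and the points of other receptors and of lysosome genes fall mostly to its left.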

How the data were processed

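The authors deposited raw read counts per gene and library, with NCBI Gene identifiers. The submitters' processing notes name cutadapt, HISAT2, featureCounts and mm10, and versions are not given in the sources used here. The study's methods state unstranded counting for its RNA-seq, not separately for RIP-seq. The counts held no molecular identifiers, so PCR copies were counted too. Columns carried replicate letters and were assigned to a group only, by name. Of 27179 identifiers 25275 matched a RefSeq symbol, and 6969 had no count.

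Genes passing filterByExpr (minimum count 10, minimum total 15) were kept, which left 13129 genes with 99.9% of counts. In edgeR 4.0.16 (R 4.3.3), TMM-scaled counts of all 9 libraries were fitted by group and tested by the quasi-likelihood test with Benjamini-Hochberg adjustment over all genes tested. SE is the log2FC divided by the square root of F. TMM assumes that most genes do not change, whereas 82.6% of all genes tested were called over IgG and 83.4% over Input. Paralog ratios were compared by exact permutation (scipy 1.17.1). Lengths, junctions and sequences came from RefSeq on GRCm38.p6, NMD transcript classes from GENCODE, and near-identical copies (at least 20% of the transcript at 90% identity) from minimap2 2.31-r1302. The members and lists were chosen with earlier results of these data known. Any member and Upf1 could be named, and from other lists the bound genes, the highest and the lowest over IgG. Alternatives changed scaling, filter, prior count, samples in the fit and test (DESeq2 1.42.0), left out a library, or, chosen after seeing the data, added the column letter as a block. Counts over the 36 members include 5 whose own results are not reported here.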

Additional observations from a re-analysis of the deposited data

How the results depend on the processing

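Across 12 alternative settings 2 or 3 members were bound, with 2 for upper-quartile scaling and for a test against the fold thresholds themselves (glmTreat), and leaving out any library gave 3. Over IgG, 18 to 23 members were higher and 8 to 10 lower, and over Input 22 or 23 were higher and 10 to 12 lower. Leaving out 1 library at a time gave 21 to 22 higher and 8 to 10 lower over IgG, 22 higher and 10 to 12 lower over Input, and 6 to 9 higher and 13 to 17 lower for IgG over Input. Scaling by library size alone moved the median log2FC of all genes over IgG from -0.03 to -0.19 and that of the members from 0.46 to 0.30. A replicate block by the letters of the count columns was added after seeing the data, although no source says that a letter marks a shared lysate. Libraries of the same letter deviated together from their group means weakly or not at all. Pearson's r across genes was between -0.0051 and 0.0542 over 9 pairs, and between -0.056 and 0.0222 for unlike letters. For letters A and B it was between 0.0316 and 0.0542, above every pair of unlike letters, and for letter C between -0.0051 and 0.0076. Whether the letters mark shared lysates was not tested. With this replicate block, which leaves 4 residual degrees of freedom, 3 members were bound, 22 were higher and 9 lower over IgG, 22 higher and 12 lower over Input, and 8 higher and 14 lower for IgG over Input.

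Values near 0 changed sign. Over IgG, Becn1 was -0.0303 with library size alone and -0.00510 with upper-quartile scaling. Atg4a was -0.0170 with library size alone. Atg16l2 was -0.13 with library size alone, -0.10 with upper-quartile scaling, -0.0499 with an Input library as the TMM reference, and between -0.000734 (without IgG library A) and 0.0881 when 1 library was left out. Over Input, Atg2a was 0.0226 with DESeq2 size factors, 0.0219 with DESeq2, 0.0945 with an IgG library as the TMM reference, 0.11 with no filter, 0.0025 with a minimum of 1 CPM in 3 libraries and 0.0047 with only the 2 groups fitted. The cause of these changes was not tested. Calls over IgG that library size alone and upper-quartile scaling took away also included Atg2a, Nbr1 and Tfeb, while Rb1cc1 gained one.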
